A study of Mus musculus with 76 samples.

Results

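Among the interneurons recorded here, 22 of 62 cells carried the transcript of Reln, the gene for the secreted protein reelin, at 10 counts per 1e6 counts (CPM) or more and are called Reln-expressing. The other 40 cells, with Reln below 10 CPM, are called Reln-negative. The cells were chosen by their measured Reln counts, so Reln itself is described below and not tested. The 62 cells are those that passed the authors' quality filter without a mark for contaminants, out of 76 labelled cells. Of the rest, 9 were removed by that filter and 5 carried the mark.

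The neurons lay in the pyramidal layer of dorsal hippocampal CA1 in acute slices from mouse pups at postnatal day 4, and their contents were drawn into the recording pipette for sequencing (Patch-seq). They carried tdTomato, which the Ai14 reporter makes wherever the Nkx2.1-Cre driver has been active, and that driver marks neurons born in the medial ganglionic eminence (MGE) of the embryonic forebrain. The same reporter and driver were carried by animals of both genotypes, so no group is without them. Mut cells came from GPHN S268/270A mice, whose gephyrin, the scaffold of inhibitory synapses, has alanine in place of 2 serines, and WT cells came from mice with unaltered gephyrin. The Reln-expressing class held 12 Mut cells (9 female, 3 male) and 10 WT cells (3 female, 7 male). The Reln-negative class held 22 Mut cells (10 female, 12 male) and 18 WT cells (6 female, 12 male). No animal is named for any cell, so cells were not used as replicates: counts were summed over the cells of each class within each of the 4 label groups, and the class difference inside each group is the replicated value. Whether the cells of the classes within a group came from the same animals is not given, and the p-values measure the spread between these sums.

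Reelin is a large glycoprotein that neurons release into the extracellular space. It binds the lipoprotein receptors VLDLR and ApoER2, the product of Lrp8, and leads Src-family kinases such as Fyn to phosphorylate the adaptor Dab1, from which Crk and Rap1 relay the signal to adhesion and the cytoskeleton. In the hippocampus around birth reelin comes first from Cajal-Retzius cells at its surface, and later from GABAergic interneurons. In adult CA1 it is known from somatostatin interneurons of stratum oriens and from neurogliaform cells, and MGE-derived neurogliaform and ivy cells also carry Npy and often Nos1.

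A Reln-expressing cell held a median of 6129380 counts (2946460 to 11407200), against 6554800 (3810120 to 12070800) in a Reln-negative cell. The medians of the 4 label groups did not separate the classes by an exact two-sided permutation test within groups (p = 0.625), which cannot pass 0.05 with 4 pairs. Genes at 10 CPM or more numbered a median of 3950.5 in Reln-expressing cells and 4102.5 in Reln-negative cells (p = 0.75, same exact test). Both Lhx6, the transcription factor of MGE interneurons, and Gad1 or Gad2, which encode the enzymes of GABA synthesis, reached 10 CPM in 20 of 22 Reln-expressing cells and in 35 of 40 Reln-negative cells. The 2 other Reln-expressing cells were Mut female cell 18 (1088 CPM of Reln), which had 4.74 CPM of Lhx6, and Mut female cell 6 (17.5 CPM of Reln), which had neither Gad1 nor Gad2 at that level. A few cells stood apart by the transcripts of glia. At least 50% of the microglial list reached 10 CPM in the Reln-expressing cells Mut female 20, WT female 6 and WT male 6 and in the Reln-negative cell WT male 10. For the astrocyte and radial glia list the same was true of the Reln-expressing cells Mut female 5 and Mut female 18 and of the Reln-negative cells Mut female 2 and Mut male 1.

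Reln lies on the minus strand of chromosome 5 (chr5:21884454-22344702, GRCm38). In Reln-expressing cells it ranged from 14.8 to 1377 CPM with a median of 139 CPM, and in Reln-negative cells from 0 to 8.55 CPM with a median of 0.994 CPM. Of the Reln-negative cells, 20 were below 1 CPM and 5 had no Reln count. Just inside the limit lay WT female cell 9 (14.8 CPM), Mut female cell 6 (17.5 CPM) and WT male cell 14 (24.3 CPM), and just outside it Mut female cell 23 (8.55 CPM), Mut female cell 1 (6.41 CPM) and Mut male cell 2 (4.76 CPM). The levels of the Reln-expressing cells were thus very unequal, with 7 of them below 100 CPM.

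Mut female cells made up most of the high end. Reln-expressing Mut cells had a median of 594 CPM in females and 221 CPM in males, and Reln-expressing WT cells 75.7 CPM in females and 117 CPM in males. All 5 Mut cells at 500 CPM or more were Mut female (594, 947, 1088, 1339 and 1377 CPM), and WT male cell 20 was the single WT cell at that level, with 594 CPM. At 100 CPM or more there were 10 Mut and 5 WT cells. The share of cells in the class was nearly the same in the genotypes, 12 of 34 Mut cells (35.3%, exact Clopper-Pearson 95% interval 19.7 to 53.5%) and 10 of 28 WT cells (35.7%, 18.6 to 55.9%). Among Mut cells it was 47.4% in females and 20% in males, and among WT cells 33.3% in females and 36.8% in males. These intervals cover the counting of cells only and treat cells as independent, which the unknown animals may not allow. Beside a count of 0 of 22 cells the limit given is 3 cells of 22, or 13.6%.

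**Figure D1:**
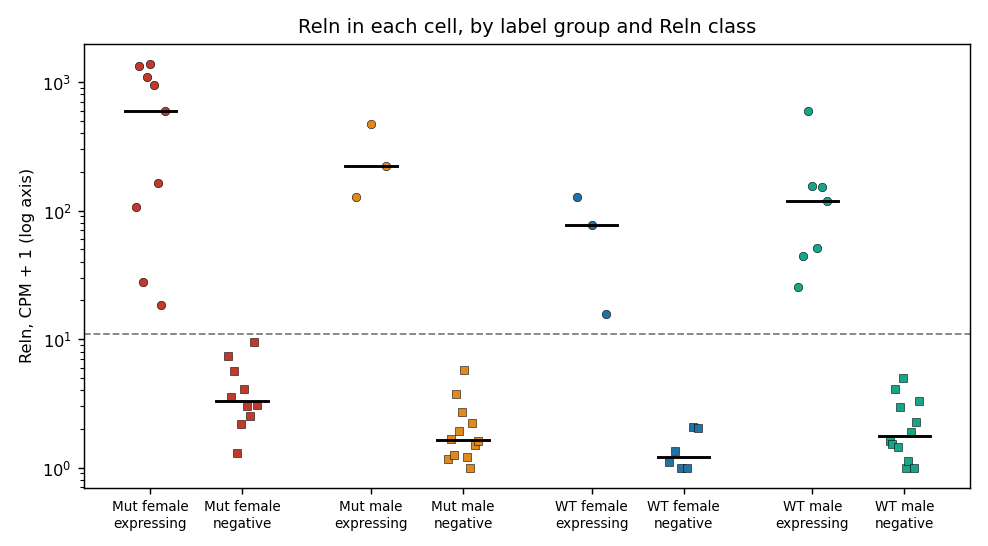
Reln in each of the 62 cells, as CPM plus 1 on a log axis, by label group and Reln class; each point is a cell (circles Reln-expressing, squares Reln-negative), the bars are medians and the dashed line is the limit of 10 CPM that made the classes. The highest values, 594 to 1377 CPM, are mostly Mut female cells, and the medians of the Reln-negative cells lie below 3 CPM in each group.

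The length-scaled abundance (TPM) ordered the cells differently. Reln-expressing cells held 1.46 to 401 TPM of Reln (median 56.1 TPM). Reln-negative cells held up to 26.8 TPM, in Mut female cell 1, which is more than in 7 of the 22 Reln-expressing cells, so the classes overlapped on this scale. The ratio of TPM to CPM ran from 0.0835 in Mut female cell 6 to 1.48 in WT male cell 14, with a median of 0.268. The ratio depends on the lengths of the Reln transcripts to which reads were assigned and on those of all other transcripts of the cell, and no table used here separates the transcripts. The GENCODE M21 annotation lists 15 Reln transcripts, of which 2 are protein-coding (10885 and 11699 bases) and the shortest measures 356 bases. WT male cell 14 had 24.3 CPM and 36.0 TPM, whereas Mut female cell 15 had 26.8 CPM and only 2.84 TPM.

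Across the transcriptome no gene passed the test for a difference between Reln-expressing and Reln-negative cells. Of 13592 genes tested with edgeR's quasi-likelihood test on the 8 sums, 0 were higher and 0 lower at a Benjamini-Hochberg adjusted p under 0.05, and the lowest adjusted p was 0.999. At an unadjusted p under 0.05, edgeR gave 145 higher (1.07%) and 367 lower genes (2.7%), together 3.77% of those tested. DESeq2 on the same sums called 166 higher (1.22%) and 702 lower (5.16%), while limma on the log2 mean CPM called 0, with a lowest adjusted p of 0.821 and 794 genes at an unadjusted p under 0.05. Log2 fold changes below are Reln-expressing over Reln-negative from edgeR. Where a standard error (SE) is given, it was derived as the absolute fold change over the square root of the test's F statistic. Because no gene passed, the fold changes are given as values of these sums. The median over all genes was -0.19, and 737 genes (5.42%) were higher and 1082 (7.96%) lower in all 4 label groups.

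The balance of direction moved with the sizes of the classes. With the limit at 10 CPM the Reln-expressing class was the smaller one, 22 against 40 cells, and more genes were lower than higher in it at an unadjusted p under 0.05. With the limit at 50 CPM (16 against 46 cells), 109 genes were higher and 518 lower. With the limit at 1 CPM the Reln-expressing class was the larger one (42 against 20 cells), and 215 genes were higher and 66 lower. Between cells at 50 CPM or more and cells under 1 CPM (16 against 20), the counts were 143 higher and 142 lower. The part of class size in the single-gene values was not tested.

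**Figure D2:**
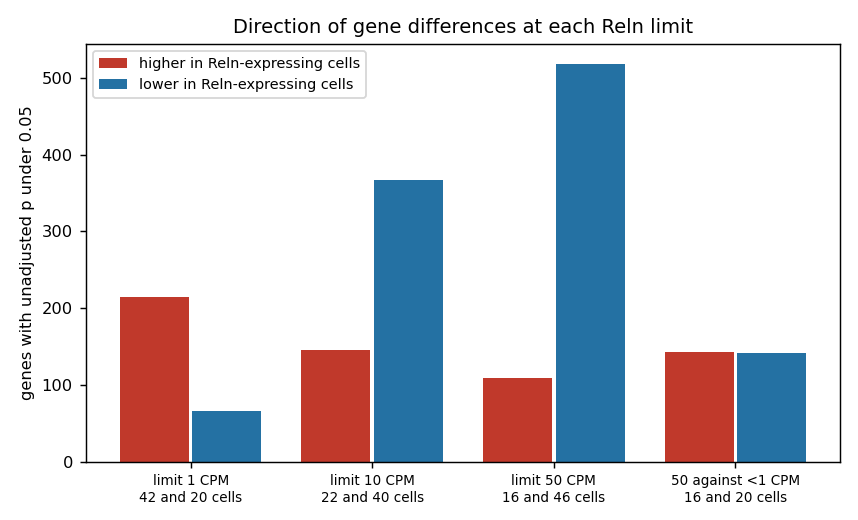
Number of genes with an unadjusted edgeR p under 0.05 (vertical axis) that were higher (left bar of each pair) or lower (right bar) in Reln-expressing cells, at 4 choices of the Reln limit; cell numbers under each pair are Reln-expressing and then Reln-negative. The longer bar is "higher" at 1 CPM (215 against 66) and "lower" at 10 CPM (145 against 367) and 50 CPM (109 against 518), and the bars are level in the comparison of 16 with 20 cells (143 and 142).

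Npy, which encodes neuropeptide Y, was the subtype marker of smallest p and the neuropeptide found in most Reln-expressing cells. It reached 10 CPM in 20 of 22 Reln-expressing cells (90.9%, 70.8 to 98.9%) and in 34 of 40 Reln-negative cells (85.0%, 70.2 to 94.3%). It ran from 3.02 to 6591 CPM with a median of 521 CPM in Reln-expressing cells, against 1.78 to 5234 CPM with a median of 332 CPM in Reln-negative cells. The summed values, as CPM scaled by edgeR's TMM, were 2172, 2572, 531 and 561 in Reln-expressing cells of Mut female, Mut male and then WT female and WT male mice, against 460, 558, 352 and 229 in Reln-negative cells of the same groups. The Reln-expressing sum was higher in all 4 groups, and over groups the ranges touched, since the WT female Reln-expressing sum lay below the Mut male Reln-negative one. The log2 fold change of Npy was 1.59 ± 0.34 (SE, unadjusted p = 0.000968, adjusted p = 0.999, edgeR). It was 1.10 without Mut male cell 7 and 1.84 without Mut male cell 8, the extremes of leaving out each cell. Npy at 500 CPM or more was found in 12 of 22 Reln-expressing cells and in 13 of 40 Reln-negative cells.

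Sst, which encodes somatostatin, rested on few cells. It reached 10 CPM in 8 of 22 Reln-expressing cells and in 13 of 40 Reln-negative cells, with medians of 5.71 CPM in Reln-expressing and 1.86 CPM in Reln-negative cells. The highest Reln-expressing cell, Mut male cell 7, held 10062 CPM, and the highest Reln-negative cell, WT male cell 15, held 609 CPM. The summed values in Mut female, Mut male and then WT female and WT male Reln-expressing cells were 579, 6182, 135 and 9.17 scaled CPM, against 22.8, 51.3, 47.0 and 58.4 in Reln-negative cells. Sst was thus higher in 3 groups and lower in WT male cells. The log2 fold change of 2.94 ± 1.55 (SE, unadjusted p = 0.0881, edgeR) became -0.38 without Mut male cell 7, which holds 68.0% of the Sst counts of its class. All 8 Reln-expressing cells with Sst also had Npy at 10 CPM or more, as did 11 of the 13 Reln-negative cells with Sst. Where the Reln limit was set at 1 CPM, Sst reached 10 CPM in 18 of 42 Reln-expressing cells and 3 of 20 Reln-negative cells.

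Tac1, the precursor gene of substance P, ran the other way. It reached 10 CPM in 8 of 22 Reln-expressing cells (36.4%, 17.2 to 59.3%) and in 22 of 40 Reln-negative cells (55.0%, 38.5 to 70.7%), with medians of 5.19 CPM in Reln-expressing and 109 CPM in Reln-negative cells. The Reln-expressing sums were 149, 193, 252 and 105 scaled CPM in Mut female, Mut male and then WT female and WT male cells, against 228, 608, 293 and 231 in Reln-negative cells. Tac1 was lower in all 4 groups, by 0.22 to 1.66 on the log2 scale, and over groups the ranges overlapped. The fitted log2 fold change was -0.91 ± 0.45 (SE, unadjusted p = 0.0729, edgeR), and leaving out single cells gave -2.03 to -0.60.

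Calb1, which encodes the calcium buffer calbindin, reached 10 CPM in 10 of 22 Reln-expressing and 14 of 40 Reln-negative cells, with medians of 8.80 CPM in Reln-expressing and 6.98 CPM in Reln-negative cells. Its log2 fold change was 1.39 ± 0.93 (SE), and the sums in Reln-expressing cells (384, 45.2, 138 and 34.8 scaled CPM in the same order of groups) overlapped those in Reln-negative cells (153, 27.8, 6.47 and 42.4). Of the other markers of neurogliaform and ivy cells, Id2, a regulator of transcription, was common to both classes, with 13 Reln-expressing and 29 Reln-negative cells at 10 CPM or more. Nos1, for neuronal nitric oxide synthase, reached 10 CPM in 3 Reln-expressing and 7 Reln-negative cells. Ndnf, a secreted factor of neurogliaform cells, did so in 5 Reln-expressing and 8 Reln-negative cells. Lamp5, a membrane protein of neurogliaform cells, reached it in 2 Reln-expressing and 5 Reln-negative cells and was lower in all 4 groups, with a log2 fold change of -3.25 ± 1.42 (SE). That sign turned when the Reln limit was set at 1 CPM, where the value was 2.44. Pnoc, the nociceptin precursor gene, reached 10 CPM in 9 Reln-expressing and 19 Reln-negative cells. Cck, for cholecystokinin, reached it in 14 Reln-expressing and 32 Reln-negative cells, and Calb2, for calretinin, in 2 Reln-expressing and 6 Reln-negative cells.

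As lists, the somatostatin and oriens markers had a median log2 fold change of -0.31 over 13 tested members and the neurogliaform and ivy markers -0.06 over 11, beside -0.19 for all genes. The parvalbumin markers had negative values in 7 of 9 members, with a median of -0.91. Their summed level per cell ran the other way, with medians of 1506 CPM in Reln-expressing and 1393 CPM in Reln-negative cells. That median was higher in Reln-expressing cells of every label group. That list holds Tac1 and Etv1, an ETS-family transcription factor that reached 10 CPM in 1 Reln-expressing cell and in 11 Reln-negative cells. Kit, a receptor tyrosine kinase of the neurogliaform and ivy list, reached it in 2 Reln-expressing cells, both Mut female, and in 9 Reln-negative cells. Crhr1, the receptor for corticotropin-releasing hormone, was found in 6 Reln-expressing cells spread over all 4 groups and in 1 Reln-negative cell, WT female cell 2, with a log2 fold change of 5.98 ± 2.32 (SE, unadjusted p = 0.0276, edgeR).

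**Figure D3:**
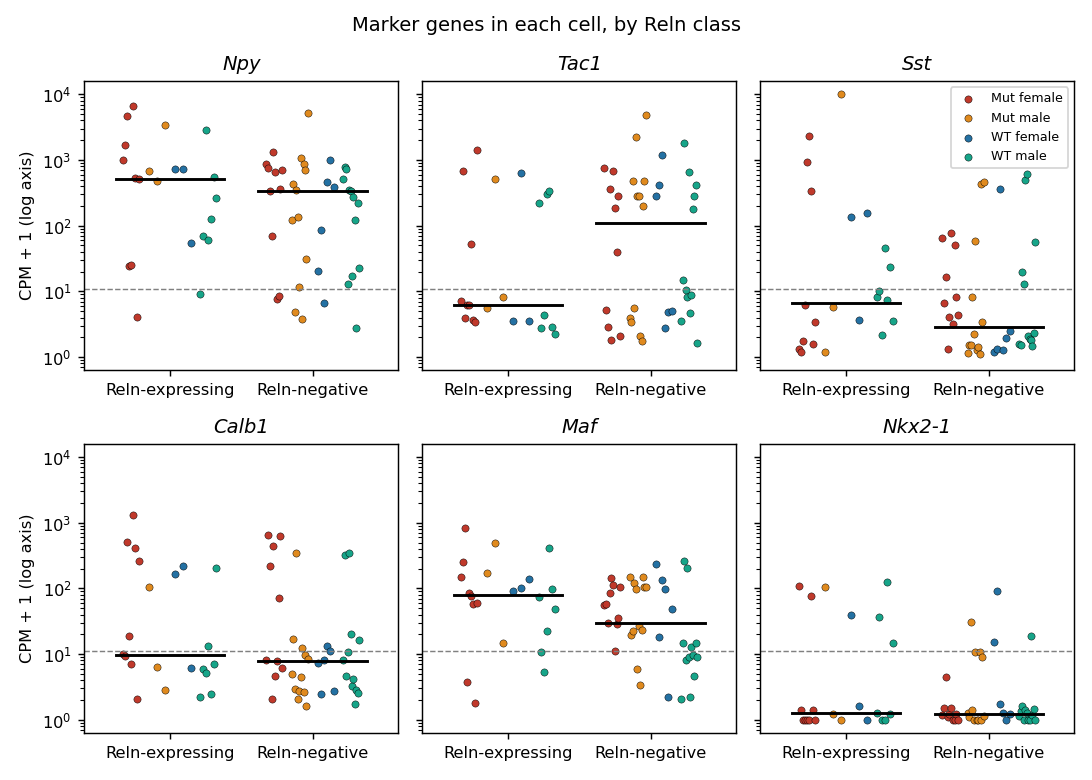
Npy, Tac1, Sst, Calb1, Maf and Nkx2-1 in each cell, as CPM plus 1 on a log axis, in 22 Reln-expressing cells (left) and 40 Reln-negative cells (right); each point is a cell coloured by label group, the bars are medians over the class and the dashed line marks 10 CPM. Reln-expressing and Reln-negative cells have medians of 521 and 332 CPM for Npy, 5.19 and 109 CPM for Tac1 and 79.6 and 28.3 CPM for Maf, and in each panel the classes overlap.

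Among the transcription factors, those of the MGE lineage were shared by both classes. Lhx6 was at 4.74 to 1628 CPM (median 402) in Reln-expressing cells and at 2.55 to 1247 CPM (median 337) in Reln-negative cells, with a log2 fold change of 0.61 ± 0.35 (SE, unadjusted p = 0.117, edgeR). Nkx2-1, which specifies the MGE and is switched off in most of its descendants on their way to the cortex and hippocampus, reached 10 CPM in 7 of 22 Reln-expressing cells (31.8%, 13.9 to 54.9%) and in 4 of 40 Reln-negative cells (10%, 2.79 to 23.7%). By group these were 2, 1, 1 and 3 Reln-expressing cells of Mut female, Mut male and then WT female and WT male mice, against 0, 1, 2 and 1 Reln-negative cells. The share was higher in 3 groups and equal in WT female cells, and with the Reln limit at 1 CPM it was 7 of 42 and 4 of 20 cells, so it was not higher in Reln-expressing cells there. Nkx2-1 had a log2 fold change of 3.15 ± 1.78 (SE, unadjusted p = 0.107, edgeR).

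Maf, a bZIP factor that acts in the maturation of MGE interneurons, had a higher sum in Reln-expressing cells of all 4 groups. Maf was at 0.826 to 840 CPM (median 79.6) in Reln-expressing cells and at 1.07 to 258 CPM (median 28.3) in Reln-negative cells. Its sums were 164, 258, 150 and 89.3 scaled CPM in Mut female, Mut male and then WT female and WT male Reln-expressing cells, against 65.4, 55.5, 103 and 35.8 in Reln-negative cells, which overlap over groups. On the log2 scale the fold change of Maf was 1.35 ± 0.65 (SE, unadjusted p = 0.0631, edgeR), and with the Reln limit at 50 CPM it was 0.24. Sox6 and Satb1, which act in MGE interneuron positioning and maturation, were found in both classes: Sox6 reached 10 CPM in 7 Reln-expressing and 18 Reln-negative cells, and Satb1 in 8 Reln-expressing and 15 Reln-negative cells. The whole list of MGE lineage factors had a median of 0.13 over 15 members. Prox1 and Nr2f2, factors better known from interneurons of the caudal ganglionic eminence, each reached 10 CPM in 1 Reln-expressing cell, against 6 Reln-negative cells for Prox1 and 8 for Nr2f2. Npas1, a transcription factor, and Cxcl14, a chemokine gene, each reached 10 CPM in 5 of 22 Reln-expressing cells and in 4 of 40 Reln-negative cells. The whole list of caudal markers had 6 positive and 4 negative members, with a median of 0.22.

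The reelin receptors and their adaptor were carried by both classes. Vldlr reached 10 CPM in 8 of 22 Reln-expressing and 15 of 40 Reln-negative cells, Lrp8 in 12 Reln-expressing and 22 Reln-negative cells, and Dab1, the intracellular adaptor, in 11 Reln-expressing and 19 Reln-negative cells. The shares therefore lay within 3 percentage points of each other for all 3 genes. The log2 fold changes were 0.72 ± 0.96 for Vldlr, 0.33 ± 0.68 for Lrp8 and 0.37 ± 0.70 for Dab1 (SE), each smaller than its error. Leaving out 1 cell turned the sign of each: Vldlr was -0.23 without Mut male cell 10, Lrp8 was -0.85 without WT female cell 9 and Dab1 was -0.12 without WT female cell 6. At this depth and number of groups no difference in receptors or adaptor was detectable.

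Downstream of Dab1, the 19 tested kinases and relays split into 10 positive and 9 negative values with a median of 0.04. Crk, the adaptor that binds phosphorylated Dab1, reached 10 CPM in 12 Reln-expressing and 18 Reln-negative cells, with medians of 54.8 CPM in Reln-expressing and 3.11 CPM in Reln-negative cells and a log2 fold change of 1.31 ± 0.71 (SE, unadjusted p = 0.0964, edgeR). Rap1b, the small GTPase further along, reached it in 19 Reln-expressing and 33 Reln-negative cells, with a log2 fold change of 0.80 ± 0.40 (SE, unadjusted p = 0.0766, edgeR) and a higher sum in all 4 groups. Socs7, which takes part in the breakdown of phosphorylated Dab1, was found in 3 of 22 Reln-expressing cells and in 19 of 40 Reln-negative cells. Its sums were 0.797, 28.4, 4.43 and 9.27 scaled CPM in Mut female, Mut male and then WT female and WT male Reln-expressing cells, against 21.2, 18, 133 and 79.7 in Reln-negative cells. Socs7 was lower in 3 groups and higher in Mut male cells, with a log2 fold change of -3.31 ± 1.53 (SE, unadjusted p = 0.0556, edgeR). With the Reln limit at 1 CPM it was 0.87.

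The genes whose products cut reelin or restrain that cutting had a median of -0.90 over 8 tested members, of which 6 were negative. Adamts5, an extracellular protease, reached 10 CPM in 0 of 22 Reln-expressing cells (at most 13.6%), and in 9 of 40 Reln-negative cells. Its log2 fold change was -3.80 ± 1.67 (SE, unadjusted p = 0.0464, edgeR). That value was -0.26 with the Reln limit at 1 CPM. Adamts5 then reached 10 CPM in 5 of 42 Reln-expressing and 4 of 20 Reln-negative cells. Of the other proteases, Adamts4 reached 10 CPM in 3 Reln-expressing and 7 Reln-negative cells, Adamts2 in 3 Reln-expressing and 8 Reln-negative cells, and Mep1b, a meprin subunit, in 0 Reln-expressing and 5 Reln-negative cells. Serpini1, for the protease inhibitor neuroserpin, was common to both classes, with 18 Reln-expressing and 34 Reln-negative cells. Among the membrane partners, with a median of 0.70 over 9 members, 3 were higher in all 4 groups. One of these was Nrp1, for neuropilin-1, which forms a complex with VLDLR. It reached 10 CPM in 12 of 22 Reln-expressing and 20 of 40 Reln-negative cells, with medians of 56.1 CPM in Reln-expressing and 9.39 CPM in Reln-negative cells and a log2 fold change of 1.5 ± 0.61 (SE, unadjusted p = 0.0339, edgeR). The Nrp1 sums were 84.7, 216, 555 and 166 scaled CPM in Mut female, Mut male and then WT female and WT male Reln-expressing cells, against 77.7, 30.7, 238 and 46.4 in Reln-negative cells, so the classes overlapped over groups.

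Among the GABA-A receptor subunits, Gabra4 had the smallest p. It encodes the alpha 4 subunit of the GABA-A receptor, which is known from extrasynaptic receptors. Gabra4 never exceeded 0.794 CPM in a Reln-expressing cell and reached 10 CPM in 0 of 22 of them (at most 13.6%). In Reln-negative cells it went up to 333 CPM and reached 10 CPM in 11 of 40, spread over the groups as 2 female and 4 male Mut cells and 2 female and 3 male WT cells. Its sums were 0.173, 0.805, 0.0632 and 0.194 scaled CPM in Mut female, Mut male and then WT female and WT male Reln-expressing cells, against 16.5, 32.5, 30.5 and 8.88 in Reln-negative cells, with no overlap. The Reln-expressing sums rested on 10, 10, 1 and 10 counts. Gabra4 had a log2 fold change of -6.41 ± 1.74 (SE, unadjusted p = 0.00419, adjusted p = 0.999, edgeR). It passed the filter on low counts through the Reln-negative cells alone, so the direction of a difference was set by that filter. With the Reln limit at 1 CPM it was -1.41. Over all 12 subunits, Gabra4 included, 4 values were positive and 8 negative, with a median of -0.72 beside -0.19 for all genes. Gphn, the gene altered in Mut mice, reached 10 CPM in 11 of 22 Reln-expressing and 24 of 40 Reln-negative cells, with medians of 10.8 CPM in Reln-expressing and 41.8 CPM in Reln-negative cells and a log2 fold change of -0.76 ± 0.91 (SE). Gad1 was at 9.86 to 1705 CPM (median 515) in Reln-expressing cells and at 2.78 to 1434 CPM (median 480) in Reln-negative cells, with 0.55 ± 0.32 (SE).

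**Figure D4:**
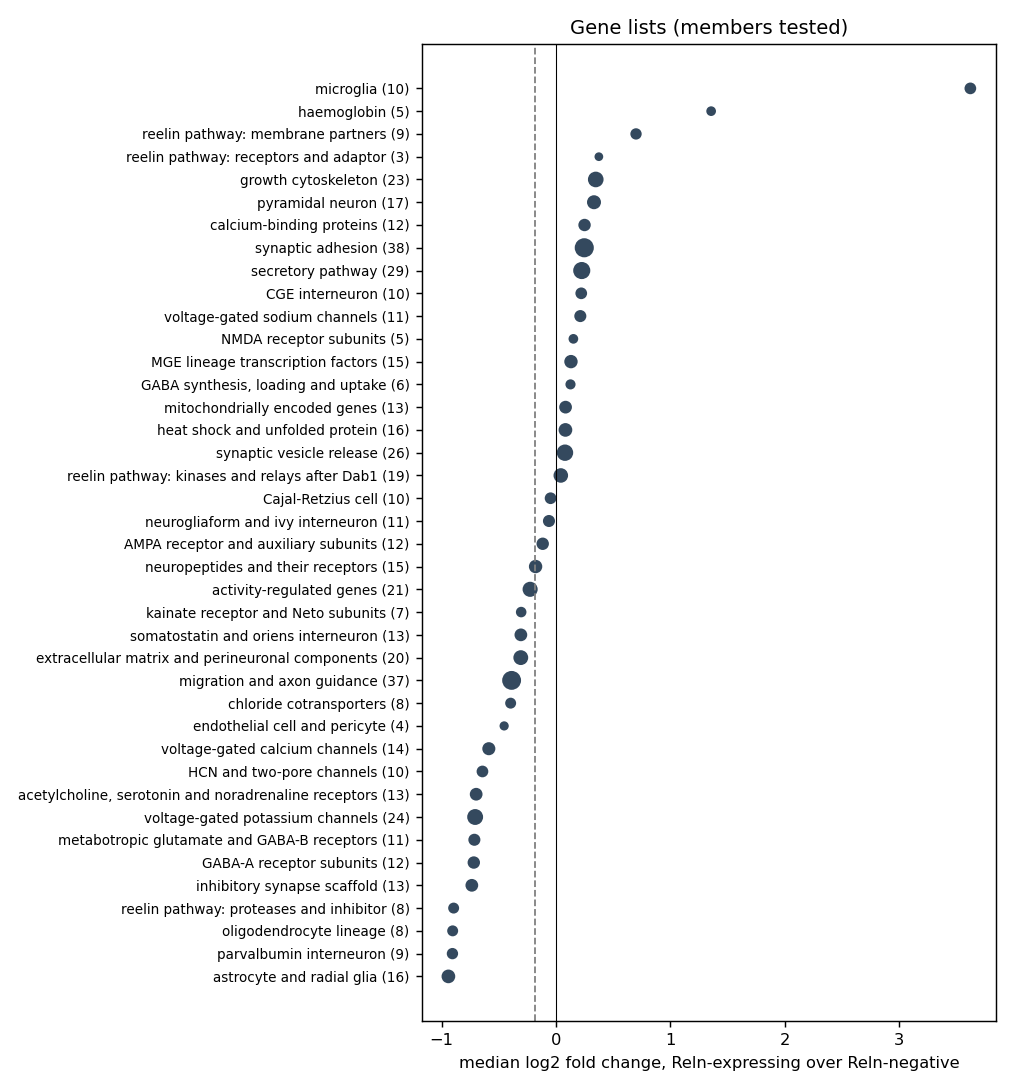
Median log2 fold change, Reln-expressing over Reln-negative, of each gene list (horizontal axis), with the number of members tested in brackets; a larger dot stands for more members, the solid line is 0 and the dashed line is the median of all 13592 genes tested (-0.19). The microglial list (3.62) and the haemoglobin list (1.36) lie furthest to the right, and the astrocyte list (-0.94), the parvalbumin list (-0.91), the oligodendrocyte list (-0.90) and the reelin proteases (-0.90) furthest to the left.

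The genes of the growing cytoskeleton, among the most abundant in these newborn neurons, had small positive values in the summed counts. Of 23 tested, 21 had a positive log2 fold change and 7 were higher in all 4 groups, with a median of 0.35 beside -0.19 for all genes. Tuba1a, an alpha-tubulin of young neurons, was at 4772 to 23499 CPM (median 12502) in Reln-expressing cells and at 3419 to 18521 CPM (median 11563) in Reln-negative cells. Its sums were 12777, 17251, 20212 and 11858 scaled CPM in Mut female, Mut male and then WT female and WT male Reln-expressing cells, against 12220.3, 11320, 11252 and 9312 in Reln-negative cells. Tuba1a was higher in all 4 groups, and over groups the classes overlapped. The class difference of Tuba1a was 0.47 ± 0.13 on the log2 scale (SE, unadjusted p = 0.00516, edgeR). Stmn2, a tubulin-binding protein of growing axons, had 0.57 ± 0.20, and Tubb3, the neuronal beta-tubulin, had 0.68 ± 0.28 (SE, unadjusted p = 0.0171 and 0.0351, edgeR). The median over cells of Tubb3 was nevertheless lower in Reln-expressing cells (1199.95 CPM) than in Reln-negative cells (1321 CPM). The largest ratios of Tuba1a, Stmn2 and Tubb3 came from the groups with 3 Reln-expressing cells, Mut male and WT female, whose sums had the lowest TMM factors (0.724 and 0.777). The summed level of the list per cell ran the other way, with a median of 50101 CPM in Reln-expressing cells and 52640 CPM in Reln-negative cells. With library totals in place of TMM the list's median was 0.07 and that of all genes -0.45.

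The genes of the extracellular matrix had 6 positive and 14 negative members with a median of -0.31, beside -0.19 for all genes. Vcan, for the proteoglycan versican and 1 of the 6, had sums of 62.5, 64.5, 76.4 and 17.1 scaled CPM in Mut female, Mut male and then WT female and WT male Reln-expressing cells, against 7.42, 14.3, 16.5 and 4.65 in Reln-negative cells. The Reln-expressing sum was higher in every group, with a log2 fold change of 2.33 ± 1.07 (SE, unadjusted p = 0.0542, edgeR). Hapln1, the link protein of perineuronal matrix, was chosen after its values were seen. It reached 10 CPM in 8 of 22 Reln-expressing cells, in all 4 groups, and in 2 of 40 Reln-negative cells, with 4.77 ± 2.43 (SE, unadjusted p = 0.0784, edgeR); its sum was lower in Mut male Reln-expressing cells, where 1 Reln-negative cell held 460 CPM. The calcium channel list was negative in 12 of 14 members, with a median of -0.59. Of all 13592 genes, 7632 were negative, with a median of -0.19. Of the calcium channel members 0 were lower in all 4 groups. The list's summed level had medians of 596 CPM in Reln-expressing and 622 CPM in Reln-negative cells. Other lists lay as low, among them the voltage-gated potassium channels (15 of 24 negative, median -0.71). The acetylcholine, serotonin and noradrenaline receptors were negative in 11 of 13 members (median -0.70).

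Of the lists of glial, vascular and blood cells, the microglial and haemoglobin lists had positive medians. The astrocyte (-0.94), oligodendrocyte (-0.90) and endothelial lists (-0.45) had negative ones. All 10 tested microglial genes had positive values, 5 of them in all 4 groups, and their median was 3.62. The summed level of the list ran from 1.18 to 6275 CPM (median 11.1) in Reln-expressing cells and from 0.837 to 809 CPM (median 8.77) in Reln-negative cells, so the difference sat in a few cells. Tmem119, a defining marker of mature microglia, reached 10 CPM in 0 cells of either class. Without the cells rich in microglial or astrocyte markers the list's median was 1.45. The Reln-expressing cell Mut male 18, with 295 CPM of C1qa and 667 CPM of C1qb, was not among the cells left out. All 5 tested haemoglobin genes were positive as well, 4 of them in all 4 groups, with a median of 1.36. The summed haemoglobin level ran from 14.7 to 26898 CPM (median 453) in Reln-expressing cells and from 2.75 to 3316 CPM (median 357) in Reln-negative cells. The part of these cells' RNA in the values of other genes was not tested. Without the glia-rich cells the log2 fold change was 1.73 for Npy, 1.61 for Maf, -6.07 for Gabra4, -1.89 for Tac1 and -0.12 for Dab1. Cells were left out of that fit for glial markers only, not for haemoglobin.

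Cajal-Retzius cells, the other source of reelin at this age, were looked for by their markers. Trp73, Lhx1, Lhx5, Ebf2 and Ebf3, genes of the Cajal-Retzius list, reached 10 CPM in 0 of 22 Reln-expressing cells (at most 13.6%), and in 0 of 40 Reln-negative cells. They are the members that reached it in no cell. Of the 14 members, 9 reached 10 CPM in at least 1 cell and 8 in at least 1 Reln-expressing cell. Ebf1, a related factor on the same list, reached 10 CPM in 7 of 22 Reln-expressing cells and in 4 of 40 Reln-negative cells. The whole Cajal-Retzius list had a median of -0.05 over 10 members, and its summed level was 3.75 to 881 CPM (median 35.7) in Reln-expressing cells and 2.09 to 734 CPM (median 23.9) in Reln-negative cells. The pyramidal neuron list had 12 positive and 5 negative members (median 0.33), with a median summed level of 594 CPM in Reln-expressing cells and 893 CPM in Reln-negative cells. Neurod6, a transcription factor of pyramidal neurons chosen after its values were seen, reached 10 CPM in 7 Reln-expressing and 24 Reln-negative cells, with a log2 fold change of -0.27 ± 0.73 (SE). The astrocyte and radial glia list had 6 positive and 10 negative members (median -0.94), with median summed levels of 872 CPM in Reln-expressing and 485 CPM in Reln-negative cells.

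Among the genes of smallest p that differed the same way in all 4 groups, several on the higher side were microglial or rested on 1 cell. Il1a, the cytokine interleukin-1 alpha, had sums of 1304, 612, 330 and 25.4 scaled CPM in Mut female, Mut male and then WT female and WT male Reln-expressing cells, against 4.68, 4.01, 3.95 and 7.43 in Reln-negative cells, with a log2 fold change of 6.29 ± 1.16 (SE, unadjusted p = 0.000291, edgeR). Its groups did not overlap, yet it reached 10 CPM in 7 Reln-expressing and 6 Reln-negative cells, and Mut female cell 20 held 83.9% of the counts of its class. The same cell held 57.9% for C1qb, a complement gene of microglia (6.26 ± 1.29, SE), and 42.5% for Ccl4, a chemokine (4.46 ± 0.96, SE). C1qa, the neighbouring complement gene, which was chosen after its values were seen, had 3.78 ± 2.22 (SE). Without the cells rich in glial markers the log2 fold change was 1.73 for Il1a, 2.70 for C1qb and 0.00 for Ccl4. That fit still held the Reln-expressing cell Mut male 18, with 1664 CPM of Il1a, 667 CPM of C1qb and 2541 CPM of Ccl4. It is therefore not a comparison of cells free of microglial transcripts.

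Atcay, which encodes the brain protein caytaxin, was at 0.780 to 1209 CPM (median 198) in Reln-expressing cells and at 0.560 to 821 CPM (median 3.19) in Reln-negative cells. It reached 10 CPM in 16 of 22 Reln-expressing cells (72.7%, 49.8 to 89.3%) and in 14 of 40 Reln-negative cells (35%, 20.6 to 51.7%), the widest positive gap in share among the 10662 genes that reached 10 CPM in at least 5 cells. Of these, 15 genes (0.141%) had a share at least 30 percentage points higher in Reln-expressing cells and 78 (0.732%) one at least as much lower. Its sums were 196, 875, 688 and 131 scaled CPM in Mut female, Mut male and then WT female and WT male Reln-expressing cells, against 28.3, 77.8, 215 and 62.1 in Reln-negative cells, and its log2 fold change was 2.26 ± 0.53 (SE, unadjusted p = 0.00167, edgeR). With the Reln limit at 1 CPM that value was 0.33, and the share of cells was lower in Reln-expressing cells, 18 of 42 against 12 of 20 Reln-negative cells.

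Ankrd17, an ankyrin-repeat protein, was at 1.87 to 950 CPM (median 128) in Reln-expressing cells and at 0.672 to 492.6 CPM (median 24.5) in Reln-negative cells. The Ankrd17 sums were 282, 459, 419 and 168 scaled CPM in Mut female, Mut male and then WT female and WT male Reln-expressing cells, against 94.9, 102, 47.8 and 38.7 in Reln-negative cells, with no overlap. Its log2 fold change was 2.25 ± 0.52 (SE, unadjusted p = 0.0015, edgeR), between 1.61 and 2.45 when single cells were left out and 0.73 to 2.43 over the other alternatives. Oxct1, an enzyme of ketone body use, had medians of 532 CPM in Reln-expressing and 321 CPM in Reln-negative cells and a log2 fold change of 1.25 ± 0.32 (SE, unadjusted p = 0.00289, edgeR). Hba-a2, an alpha-globin gene, had medians of 190 CPM in Reln-expressing and 161 CPM in Reln-negative cells and a log2 fold change of 1.80 ± 0.35 (SE, unadjusted p = 0.000454, edgeR). Stk32b, a kinase gene, reached 10 CPM in 6 Reln-expressing and 2 Reln-negative cells, and Stx2, a syntaxin gene, in 4 Reln-expressing and 2 Reln-negative cells, with 78.4% of the Stx2 counts of Reln-expressing cells in Mut male cell 7.

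On the lower side all 10 genes of smallest p were detected at 10 CPM in 0 of 22 Reln-expressing cells (at most 13.6%). Some of them, such as Naalad2, passed the filter on low counts through the Reln-negative cells alone. All 10 were picked for being lower in all 4 groups, so their low values follow in part from how they were picked. Mecr, an enzyme of mitochondrial fatty acid synthesis, reached 10 CPM in 15 of 40 Reln-negative cells, in all 4 groups. Its sums were 0.243, 0.644, 0.569 and 0.428 scaled CPM in Mut female, Mut male and then WT female and WT male Reln-expressing cells, against 54.9, 30.8, 99.3 and 58.8 in Reln-negative cells, without overlap. Mecr had a log2 fold change of -7.00 ± 1.39 (SE, unadjusted p = 0.000524, edgeR). Ralb, a small GTPase gene, reached 10 CPM in 14 Reln-negative cells, Mphosph6, Mipep and Zfp513 in 11 each, Ttc27 in 9, Fam120c in 7, Naalad2 and Itprid2 in 5 each and Cfap57 in 4. The fitted log2 fold change was -6.98 for Mphosph6, -7.31 for Ttc27, -5.76 for Ralb and -5.21 for Mipep. For the other 5 genes at least 1 of the 4 Reln-expressing sums held no count, so that the fitted value depends on the prior count of the fit. Naalad2, a peptidase gene, had 1 count in all Reln-expressing cells together, in Mut female cells, against 608, 546, 255 and 223 counts in the Reln-negative sums of Mut female, Mut male and then WT female and WT male cells. Lowering the Reln limit to 1 CPM turned the sign for Mphosph6 (2.26), Ralb (1.92) and Zfp513 (2.07), and Mecr became -2.26.

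**Figure D5:**
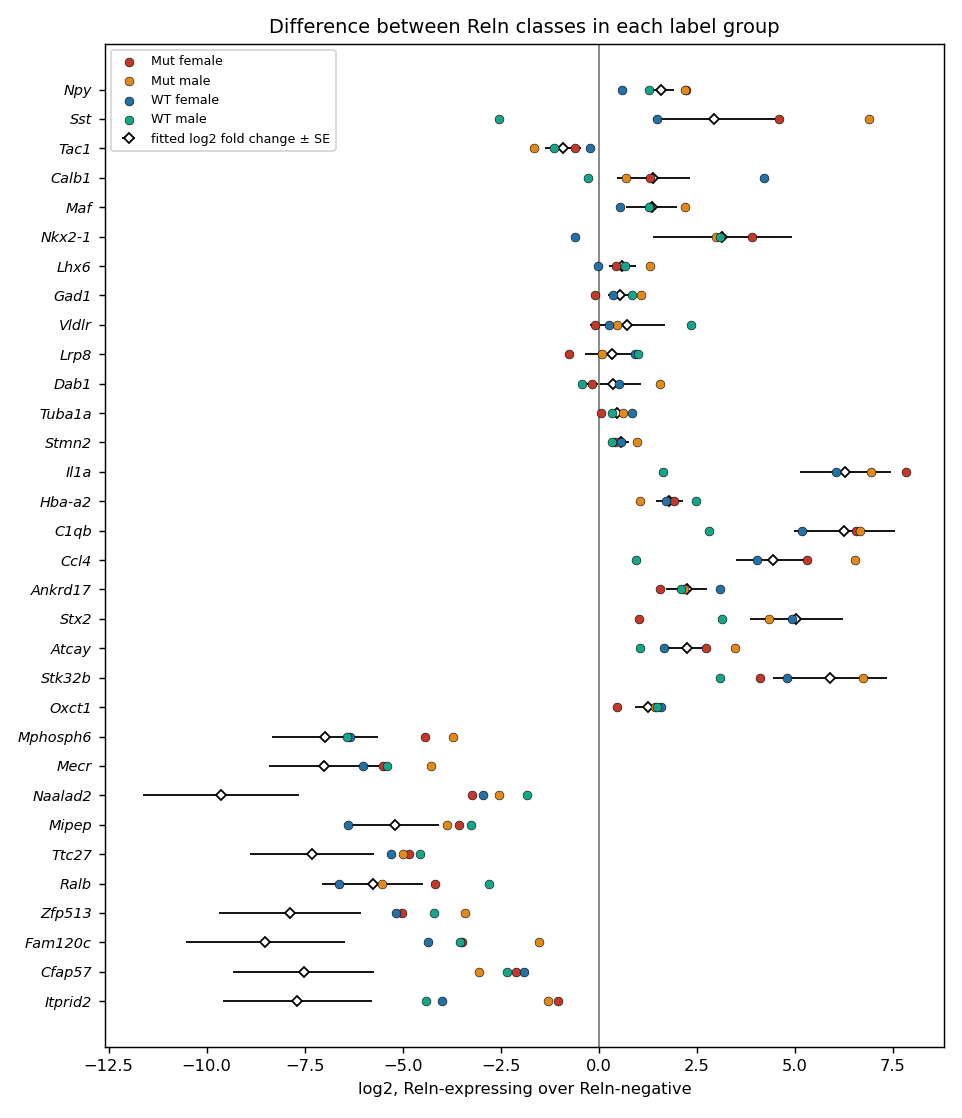
Log2 ratio of the Reln-expressing sum over the Reln-negative sum in each label group (coloured points, scaled CPM with a pseudocount of 1) and the fitted edgeR log2 fold change with its standard error (open diamonds) for the genes described; the line at 0 marks no difference. The 4 points of Npy lie between 0.59 and 2.24 and those of Sst between -2.55 and 6.88. For genes with almost no count in Reln-expressing cells, such as Naalad2, the fitted value lies beyond the points, since the fit adds a smaller prior count than the pseudocount of the points.

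The difference between the classes was set against genotype and sex by interaction terms in the same edgeR model. No gene passed for genotype or for sex, and the lowest adjusted p was 1 in both. At an unadjusted p under 0.05 there were 328 genes for genotype (2.41%) and 388 for sex (2.85%), and DESeq2 called 502 and 594. For Npy the log2 ratio of Reln-expressing over Reln-negative sums was 2.24 and 2.2 in Mut female and Mut male cells, against 0.59 and 1.29 in WT female and WT male cells (unadjusted p = 0.0522 for genotype, edgeR). For Sst it was 4.61 and 6.88 in Mut female and Mut male cells, against 1.5 and -2.55 in WT female and WT male cells (unadjusted p = 0.00144, edgeR). These Sst values rest on few cells. Mut male cell 7 held 10062 CPM, against 0.198 and 4.82 CPM in Mut male cells 10 and 18. The highest Reln-expressing Mut female cells were cell 22 (2287 CPM) and cell 20 (924 CPM). For Tac1 the log2 ratio was -0.61 and -1.66 in Mut cells, against -0.22 and -1.13 in WT cells (unadjusted p = 0.649, edgeR). The Reln level of the Reln-expressing cells also differed between the genotypes, with medians of 344 CPM in Mut and 96.4 CPM in WT cells, and its part in these differences was not tested.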

How the data were processed

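Patch-seq libraries of 76 labelled cells were used, 1 GEO sample per cell. Per the submitters' processing notes, reads were quantified with kallisto on GRCm38 (version not given in the sources used here). The deposited tables hold estimated counts per gene symbol, before and after the authors' quality filter, and TPM. The filter's criterion and the basis of the contaminant mark are not given in the sources used here. Of 35825 symbols, 35408 matched GENCODE M21. Columns of other cells (44 in the filtered counts, 52 in the unfiltered, 44 in TPM) were not used.

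CPM is a count over the cell's total. Counts of each class were summed per label group (4 groups, 2 classes, 8 sums) and rounded. The sums held 17225965 to 52513666 counts in Reln-expressing and 41108032 to 94968527 in Reln-negative cells. They were tested with edgeR 4.0.16 (R 4.3.3; TMM, filterByExpr with minimum count 10, glmQLFit, glmQLFTest, label group as a block, 3 residual degrees of freedom; biological coefficient of variation 1.08), Reln left out, at an adjusted p of 0.05. The fit was tested on simulated data. Alternatives were DESeq2 1.42.0, limma 3.58.1 and others on scaling, filters, cells and the Reln limit.

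The members, gene lists and Reln limit were chosen with earlier results of these data known. Named genes are up to 10 per direction of smallest p with the same direction in all 4 groups and 10 CPM in at least 3 cells of the higher class (Gm and Rik names passed over), fixed subtype and pathway genes, and up to 3 members per list. Cells are numbered within a group in label order. No sequence is printed, since no table used here gives one that bears on the comparison. A result that a named item would need is not reported here.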

Additional observations from a re-analysis of the deposited data

Results flagged for a closer look

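Single values far from the rest of their group were looked for in 83 sets of 4 to 10 values, where chance alone gives about 1 in 20, and 7 were found. Among the 4 log2 ratios of Reln-expressing over Reln-negative sums, Oxct1 was lowest in Mut female cells (0.46) and Gphn was lowest in WT female cells (-3.58). Among Reln-expressing cells, Mut female cell 22 had the highest total count of its group (11407202), and WT male cell 7 the highest Calb1 (203 CPM). Among Reln-negative cells, Mut female cell 2 had the lowest Gad1 (27.7 CPM), WT female cell 3 the highest Sst (365 CPM) and WT female cell 7 the lowest Lhx6 (2.67 CPM).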

How the results depend on the processing

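The sign of the fold change was followed for 47 of the genes named above, C1qa not among them. Of these, 35 kept it under each of the 14 alternatives that gave a value and without each single cell or label group. With DESeq2, 23 of the 47 had an adjusted p under 0.05. Many of the 47 were picked for a small edgeR p on these same sums, so this share is no separate evidence. Over all 13592 genes DESeq2 called 166 higher (1.22%) and 702 lower (5.16%) in Reln-expressing cells. It called 210 higher and 292 lower for the genotype term and 214 higher and 380 lower for the sex term, against 0 with edgeR in each. The genotype term without a filter gave 2 higher and 1 lower. Leaving out a cell or a group gave 0 to 1 higher genes, the 1 being Il1a without the WT male group. With the Reln limit at 1 CPM the sign turned for Mphosph6 (2.26), Ralb (1.92), Zfp513 (2.07), Lamp5 (2.44), Lrp8 (-0.28), Socs7 (0.87), Stmn2 (-0.022) and Tubb3 (-0.049). It also turned at 50 CPM for Lrp8 (-0.52), between 50 CPM and under 1 CPM for Lamp5 (0.024) and Lrp8 (-1.15), with limma for Lrp8 (-0.0054), without glia-rich cells for Dab1 (-0.12) and without the block for Neurod6 (0.48). Leaving out cells or groups gave -0.38 to 5.16 for Sst, -0.23 to 1.42 for Vldlr, -0.85 to 0.68 for Lrp8, -0.12 to 0.65 for Dab1 and -1.75 to 0.23 for Neurod6. The causes were not tested. The median of all genes was -0.45 with library totals, -0.05 with median-of-ratios scaling and 0.13 without the block. Of 252 list medians, 35 moved by more than 1 SD, and 13 of 56 shares left their interval. The SD is that of the list's median log2 ratio over the label groups. No value was obtained for Naalad2 with Lhx6-positive cells only, for Ttc27, Fam120c, Itprid2 and Cfap57 between 50 CPM and under 1 CPM, or for Cfap57 with the filter of 10 CPM in 5 cells. No paired analysis was possible because cell numbers follow the order of the labels only and pair no cells; the classes were compared within label groups throughout.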

Other observations

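Among the 9 cells that the authors' filter removed, 2 held Reln at 10 CPM or more, Mut female cell 7 (12.2 CPM) and Mut male cell 15 (10.4 CPM), and of the 5 kept cells marked with contaminants none did (highest 2.09 CPM). Over 10662 genes the share of cells at 10 CPM was at least 30 percentage points higher in Reln-expressing cells for 15 genes (0.141%) and lower for 78 (0.732%), and the median difference was -2.95 points. On the higher side were Csrp2, a LIM protein, in 12 Reln-expressing and 7 Reln-negative cells, and Fxyd7, a regulator of the sodium pump, in 16 Reln-expressing and 15 Reln-negative cells. On the lower side were Ipo11, a nuclear import receptor, in 1 Reln-expressing and 21 Reln-negative cells, Snrk, a kinase gene, in 6 Reln-expressing and 29 Reln-negative cells, and Akap6, for an anchoring protein, in 1 Reln-expressing and 19 Reln-negative cells. These were chosen after their values were seen.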
